A study of Mus musculus with 6 samples.

Results

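The small nucleolar RNA genes and their non-coding host genes were examined in mouse neocortex labelled Tshz3 mutant or wild type. Rows of the gene count table were taken by symbol: Snora and Snord followed by a digit, Scarna followed by a digit, Snhg followed by digits only, and Gas5. This gave 131 of 23420 rows, of which 119 were snoRNA or scaRNA rows and 12 were host rows (Gas5 and 11 Snhg genes). By class, 74 rows were box C/D snoRNAs, 36 were box H/ACA snoRNAs and 9 were small Cajal body RNAs. The 6 libraries were made from total RNA of neocortex at embryonic day 18.5. There were 3 libraries per genotype, each from a pool of 3 to 4 embryos taken from several litters. The wild-type group is the only comparison group, and the labels name no allele, strain or sex for either group. The series' title speaks of a TSHZ3 deletion.

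Small nucleolar RNAs, or snoRNAs, are short nuclear RNAs that guide chemical modification of other RNAs. Box C/D snoRNAs direct ribose methylation and box H/ACA snoRNAs direct pseudouridylation, mainly of ribosomal RNA, while scaRNAs do the same for spliceosomal RNAs in Cajal bodies. In mammals most of them are cut from introns of host genes after splicing, and many hosts are ribosomal protein or translation factor genes. The Snhg genes and Gas5 are hosts whose spliced product codes for no known conserved protein, and several of these spliced RNAs, Gas5 among them, are degraded by nonsense-mediated decay. One host transcript therefore yields a spliced RNA and a set of intronic RNAs with separate fates.

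The snoRNAs that the results below turn on are shown with the motifs known for their class. The class of each row was taken from its symbol, not from the motifs. Boxes C and D were searched only in Snord rows and ACA only in Snora rows. Sequences were read from GRCm38 at the positions of the GENCODE M21 annotation, and all 7 shown lie within a non-coding host. Capitals mark box C (TGATGA, starting in the first 20 bases), box D (CTGA, ending within 10 bases of the 3′ end) or, in H/ACA snoRNAs, the letters ACA followed by exactly 3 bases. Only the strand of the snoRNA was searched. Snord47, of Gas5, lies at chr1:161038082-161038158 on the plus strand. Snora16a, Snora44, Snora61 and Snord99, all of Snhg12, lie at chr4:132309464-132309600, chr4:132309941-132310069, chr4:132310240-132310369 and chr4:132310691-132310764 on the plus strand. Snora43, of Snhg7, lies at chr2:26637847-26637985 on the minus strand, and Snord52, of 1110038B12Rik, at chr17:34950952-34951017 on the minus strand.
Snord47: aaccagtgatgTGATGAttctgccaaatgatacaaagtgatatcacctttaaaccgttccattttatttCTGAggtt
Snord52: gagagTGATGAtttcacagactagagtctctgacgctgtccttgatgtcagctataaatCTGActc
Snord99: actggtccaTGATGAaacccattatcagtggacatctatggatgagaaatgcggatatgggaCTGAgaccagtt
Snora61: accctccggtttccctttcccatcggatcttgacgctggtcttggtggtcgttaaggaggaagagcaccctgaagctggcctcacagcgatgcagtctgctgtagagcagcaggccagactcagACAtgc
Snora16a: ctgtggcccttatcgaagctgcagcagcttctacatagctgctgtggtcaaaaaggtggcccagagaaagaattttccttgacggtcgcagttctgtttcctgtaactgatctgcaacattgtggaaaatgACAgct
Snora44: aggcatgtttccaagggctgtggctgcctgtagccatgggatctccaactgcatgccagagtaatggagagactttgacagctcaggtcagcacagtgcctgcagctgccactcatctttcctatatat
Snora43: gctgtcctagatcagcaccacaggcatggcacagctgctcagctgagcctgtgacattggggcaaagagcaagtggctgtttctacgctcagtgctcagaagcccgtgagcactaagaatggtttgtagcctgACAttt

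Snord47, Snord52 and Snord99 held both boxes C and D. Snora61, Snora16a and Snora43 held the ACA letters, and Snora44 had no match in this form. Over the 73 C/D rows with a position, 46 (63%) held this box C and 66 (90.4%) this box D, against 70.7% and 92.9% of the 99 C/D entries of the annotation. Of the 36 H/ACA rows, 30 (83.3%) held the ACA letters, against 83.3% of the 42 H/ACA entries of the annotation. The annotation entries were also taken by symbol and include the rows themselves, so the shares compared are not independent. C/D rows had a median length of 80 bases and H/ACA rows 132 bases, while host genes spanned 435 to 10508 bases, introns included.

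These short RNAs gave few reads in this library type. Of the 119 snoRNA and scaRNA rows, 24 had no read in any library, among them Snord118, Scarna2, Scarna10 and the Snord116 rows. Another 52 had 1 to 59 reads summed over the 6 libraries and were not tested. The remaining 43, comprising 26 C/D and 17 H/ACA rows, passed the filter on low counts, and no scaRNA did. All hosts but Snhg9 passed, giving 54 tested members. Among the untested rows, Scarna13, which lies in Snhg10, had 7, 7 and 7 reads in the mutant-labelled libraries and 7, 3 and 7 in the wild type. Levels below are in CPM, read counts scaled to library size with TMM. They are not divided by length and so are compared between genotypes, not between genes.

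In bulk RNA, fewer cells of a type and less RNA per cell cannot be told apart. Further limits touch every snoRNA row. A read counted to a snoRNA may come from the mature snoRNA or from unspliced host RNA, and the counts do not separate these. Of the tested snoRNA rows, 27 overlapped an exon of some annotated host transcript and 13 did not, and the sources used here do not say how reads over such overlaps were assigned. Short RNAs transcribed from promoters of their own gave low values too. Snord118 (the U8 snoRNA) and Scarna2 were at 0 reads, and the ribonuclease RNAs Rmrp and Rpph1 averaged 0.0603 and 0.0771 CPM in the mutant-labelled libraries and 0.469 and 0.421 CPM in the wild type. Numbered copies of near-identical sequence, such as Snord88a and Snord88c, may share reads and are uncertain.

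Total counts ran from 18569383 to 24147810 per library. Tshz3, which encodes a zinc finger transcription factor, was not lower in the libraries labelled mutant and so did not check the labels. Its level was 89.8, 93.1 and 99.2 CPM in the mutant-labelled libraries and 78.7, 83.0 and 89.3 CPM in the wild type. The edgeR adjusted p was 0.669, and 0.0525 with same-numbered libraries paired. Because Tshz3 did not check the labels, groups are called mutant-labelled and wild type. Tbr1, a transcription factor gene that marks neocortical neurons, was at 242.5, 253 and 263 CPM in the mutant-labelled and 239.6, 229 and 280.3 CPM in the wild-type libraries. Markers of choroid plexus and thalamus summed to 171 to 827 against 138 to 840 CPM and those of meninges to 56.4 to 239 against 44.1 to 297 CPM, a wide spread within each group. Microglial sums were 62.3 to 84.9 against 68.4 to 87.9 CPM, and vascular sums 164 to 208 against 165 to 214 CPM. Ganglionic eminence markers summed to 468 to 540 against 467 to 563 CPM. Blood markers summed to 8.81 to 11.7 against 6.70 to 13.2 CPM, with 4 adult globin symbols at 0.

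The comparison of genotypes asked which of these transcripts differed. Without pairing, none of the 54 tested members was called by edgeR (adjusted p under 0.05), which called 0.0752% of all 14618 tested genes, 0.0479% higher and 0.0274% lower. DESeq2 also called 0 members. At an unadjusted p under 0.05, edgeR gave 8 snoRNA rows higher and 1 lower, and 0 hosts higher and 3 lower, against 7.09% of all tested genes, 4.1% higher and 3% lower. Same-numbered libraries deviated together, so the fit was also made with the library number as a block. That fit called Snord47 and Snora61 higher and Snhg1 and Snhg5 lower in the mutant-labelled libraries, beside 3.46% of all genes called, 1.97% higher and 1.49% lower. At an unadjusted p under 0.05 it gave 11 snoRNA rows higher and 1 lower, and 1 host higher and 3 lower, against 17.9% of all tested genes, 9.36% higher and 8.51% lower. The other 50 tested members were called by neither fit.

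The tested snoRNA rows did not share a direction. Fold changes were above 0 in 22 and below 0 in 21 of the 43, with a median log2 difference of 0.03 and a range of −0.998 to 1.004, beside a median of −0.01 over all tested genes. The 3 libraries of one genotype all lay above the 3 of the other in 9 snoRNA rows with the mutant-labelled libraries higher and in 2 with them lower. Over all tested genes 7.42% were separated with the mutant-labelled higher and 6.09% with them lower. Over all 95 snoRNA rows with at least 1 read, tested or not, 11 were separated with the mutant-labelled libraries higher and 8 with them lower. The 9 tested rows that were higher were Snord47, Snora61, Snord52, Snora16a, Snord65, Snord37, Snora43, Snord104 and Snord57, and the 2 lower were Snord69 and Snord96a.

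**Figure D1:**
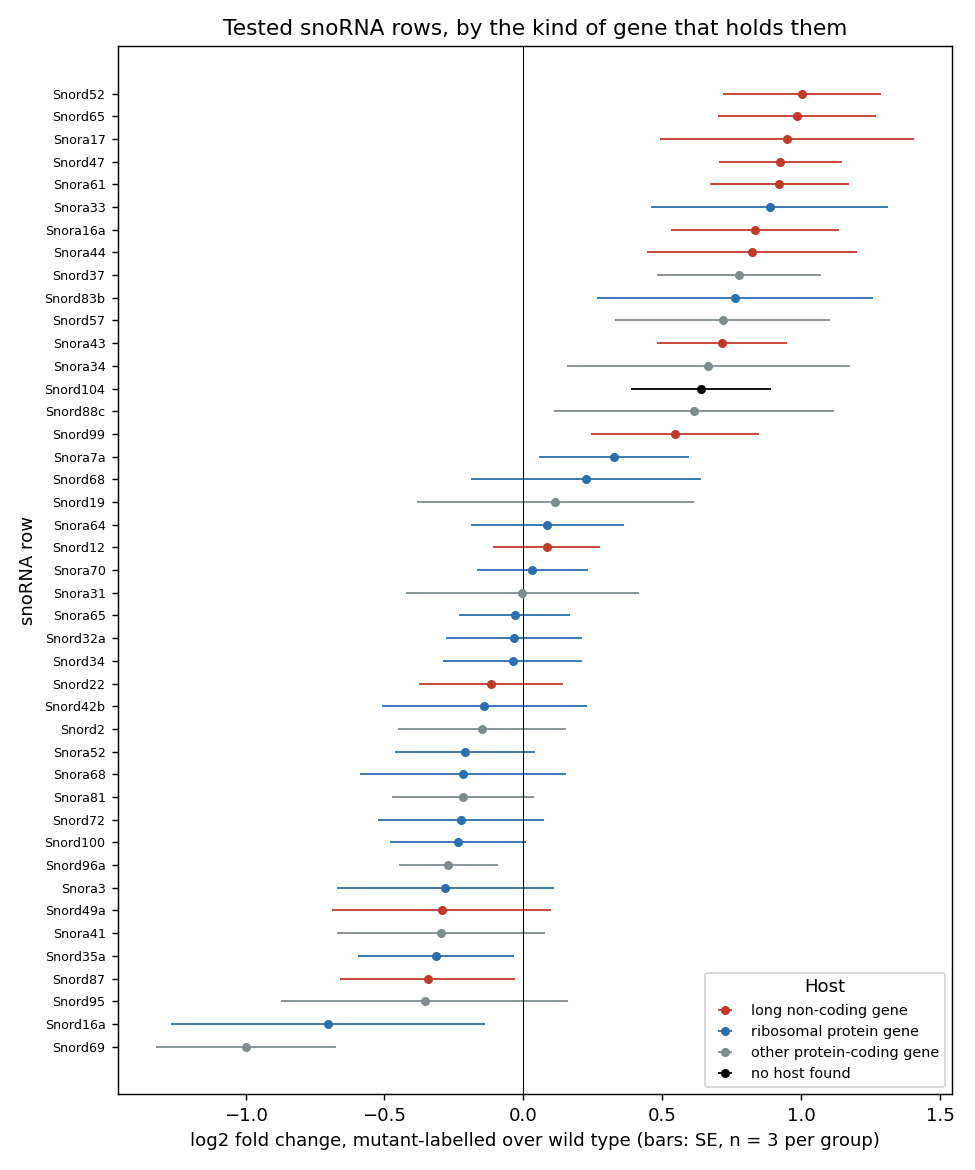
Each point is the log2 fold change of a tested snoRNA row (43 rows), mutant-labelled over wild type, from edgeR without pairing, and bars are SE with 3 libraries per genotype. Colours give the kind of gene that holds the snoRNA. Rows in long non-coding genes (red) lie mostly to the right, 10 of 13 above 0, and some of them share a host. Rows in ribosomal protein genes (blue) lie on both sides, 6 above 0 and 11 below.

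Gas5, a host of C/D snoRNAs known as a growth arrest transcript, did not pass the test. Its level was 207, 193 and 187 CPM in mutant-labelled libraries 1 to 3 and 170, 174 and 195 CPM in the wild type, so the groups overlapped. The log2 difference was 0.12 (SE 0.07, edgeR adjusted p = 0.805, and 0.280 with pairing).

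Snord47, the tested snoRNA of Gas5, guides ribose methylation of large-subunit ribosomal RNA. It was counted in 57, 65 and 65 reads in the mutant-labelled libraries and 25, 35 and 31 in the wild type. In CPM these were 2.69, 2.71 and 3.27 against 1.19, 1.69 and 1.69, with every mutant-labelled library above every wild-type one. The mean was 2.89 ± 0.332 CPM against 1.52 ± 0.291 (SD, n = 3), a 1.90-fold difference (log2 0.92, SE 0.22). It rose in the fit with pairing (edgeR adjusted p = 0.0235) and did not pass without it (adjusted p = 0.358). With pairing, the adjusted p was 0.134 without the libraries numbered 1, 0.00165 without those numbered 2 and 0.250 without those numbered 3, while the log2 difference stayed at 0.81 to 1.06.

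Snhg12 carried 4 tested snoRNA rows, and all 4 had higher means in the mutant-labelled libraries. Snora61, an H/ACA guide, was at 2.59, 2.29 and 2.77 CPM in the mutant-labelled libraries and 1.09, 1.79 and 1.14 CPM in the wild type. The groups did not overlap, and the second wild-type library was the highest of its group. The difference was 1.89-fold (log2 0.92, SE 0.25). Snora61 passed with pairing (edgeR adjusted p = 0.0471) and not without it (adjusted p = 0.440). With pairing, the adjusted p was 0.226 without the libraries numbered 1, 0.000377 without those numbered 2 and 0.407 without those numbered 3.

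The other snoRNAs of Snhg12 passed neither fit. Snora16a was at 1.18, 1.54 and 1.86 CPM against 0.759, 0.676 and 1.14 (log2 0.83, SE 0.30), with groups that did not overlap by a small margin. Snora44 was at 0.943, 1.501 and 1.76 CPM against 0.759, 0.483 and 1.14 (log2 0.82, SE 0.38), and Snord99 at 0.990, 1.501 and 1.06 CPM against 1.04, 0.676 and 0.708 (log2 0.55, SE 0.30). For both, 1 wild-type library lay above the lowest mutant-labelled library. The 4 rows come from 1 host transcript and share its libraries, so they are not separate observations of the genotype. Snhg12 itself was at 27.1, 28.0 and 27.7 CPM in the mutant-labelled libraries and 21.7, 29.6 and 25.9 CPM in the wild type, which enclosed the mutant-labelled range. Its log2 difference was 0.10 (SE 0.11, edgeR adjusted p = 0.931).

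**Figure D2:**
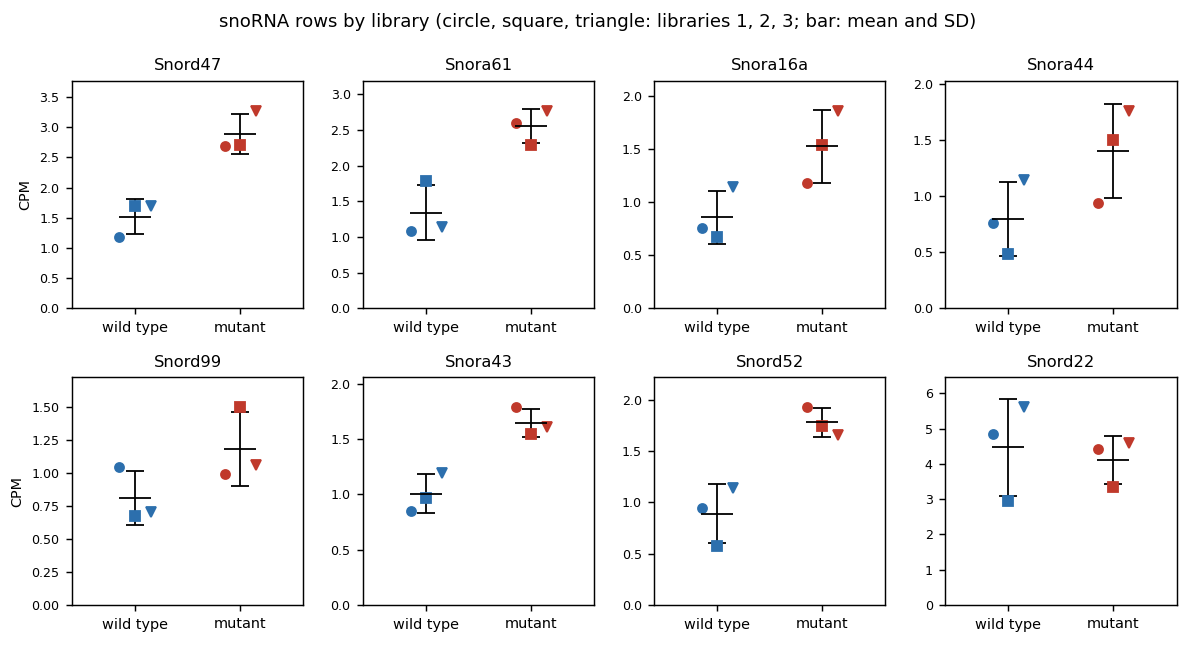
Each panel shows 1 snoRNA row in CPM, by genotype. Points are libraries (circle, square and triangle for libraries 1, 2 and 3), and bars are the mean and SD of 3. Snord47, Snora61, Snora16a, Snora43 and Snord52 have every mutant-labelled library above every wild-type one, while Snord22 has overlapping groups with library 2 lowest in both.

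Snhg7 holds the H/ACA snoRNAs Snora43 and Snora17. Snora43 was at 1.79, 1.54 and 1.61 CPM in the mutant-labelled libraries and 0.853, 0.966 and 1.20 CPM in the wild type, without overlap (log2 0.71, SE 0.23, edgeR adjusted p = 0.517, and 0.15 with pairing). Snora17 had a log2 difference of 0.95 with an SE of 0.46, and its groups overlapped. The host was at 11.8, 11.5 and 12.4 CPM against 12.6, 8.94 and 11.6 (log2 0.11, SE 0.14), so the wild-type libraries enclosed the mutant-labelled ones.

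Snhg1 and Snhg5 were the 2 hosts that fell with pairing. Snhg1 was at 38.1, 33.6 and 34.5 CPM in the mutant-labelled libraries and 46.0, 41.1 and 46.8 CPM in the wild type, without overlap. The log2 difference was −0.33 (edgeR SE 0.08, adjusted p = 0.375 without pairing, and SE 0.06, adjusted p = 0.0104 with it). Its snoRNA Snord22 (U22), which takes part in processing of small-subunit ribosomal RNA, was at 4.43, 3.34 and 4.58 CPM against 4.84, 2.95 and 5.61. Library 2 was the lowest in both groups, the groups overlapped, and the log2 difference was −0.12 (SE 0.26).

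Snhg5 was at 54.5, 56.6 and 52.8 CPM in the mutant-labelled libraries and 63.6, 64.4 and 68.5 CPM in the wild type. All mutant-labelled values were below all wild-type ones. Its log2 difference was −0.26 (edgeR SE 0.06, adjusted p = 0.327 without pairing and 0.0205 with it). With pairing, both hosts lost the call without the libraries numbered 3 (adjusted p = 0.271 for Snhg1 and 0.378 for Snhg5) and kept it without those numbered 1 or 2.

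The other hosts passed neither fit. Snhg6 was at 13.5, 14.8 and 15.1 CPM against 16.9, 15.9 and 18.7, also without overlap (log2 −0.25, SE 0.10, edgeR adjusted p = 0.670, and 0.174 with pairing). Snhg10 was at 2.64, 2.17 and 2.02 CPM against 2.85, 2.51 and 3.59 (log2 −0.39, SE 0.22), and the highest mutant-labelled library lay above the lowest wild-type one. Of the 11 tested hosts, 5 had a log2 difference above 0 and 6 below, with a median of −0.02, and 3 were separated with the mutant-labelled libraries lower against 0 with them higher.

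Snhg11, a host known to be enriched in neurons, followed the library number. It was at 247, 205 and 313 CPM in mutant-labelled libraries 1, 2 and 3 and at 276, 184 and 367 CPM in the wild type, in the same order in both groups. Its log2 difference was −0.11 (SE 0.27) without pairing and −0.08 (SE 0.07) with it. Snhg3 was at 7.26, 6.38 and 7.45 CPM against 7.49, 6.62 and 7.24, and Snhg4 at 12.3, 13.0 and 12.9 CPM against 12.7, 10.5 and 12.4. Snhg8, at 8.44, 9.92 and 11.1 CPM against 8.87, 8.74 and 10.7, overlapped as well. The log2 differences of these 3 were −0.02, 0.11 and 0.06. Snhg9 was not tested, with a mean of 6.17 reads per library.

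**Figure D3:**
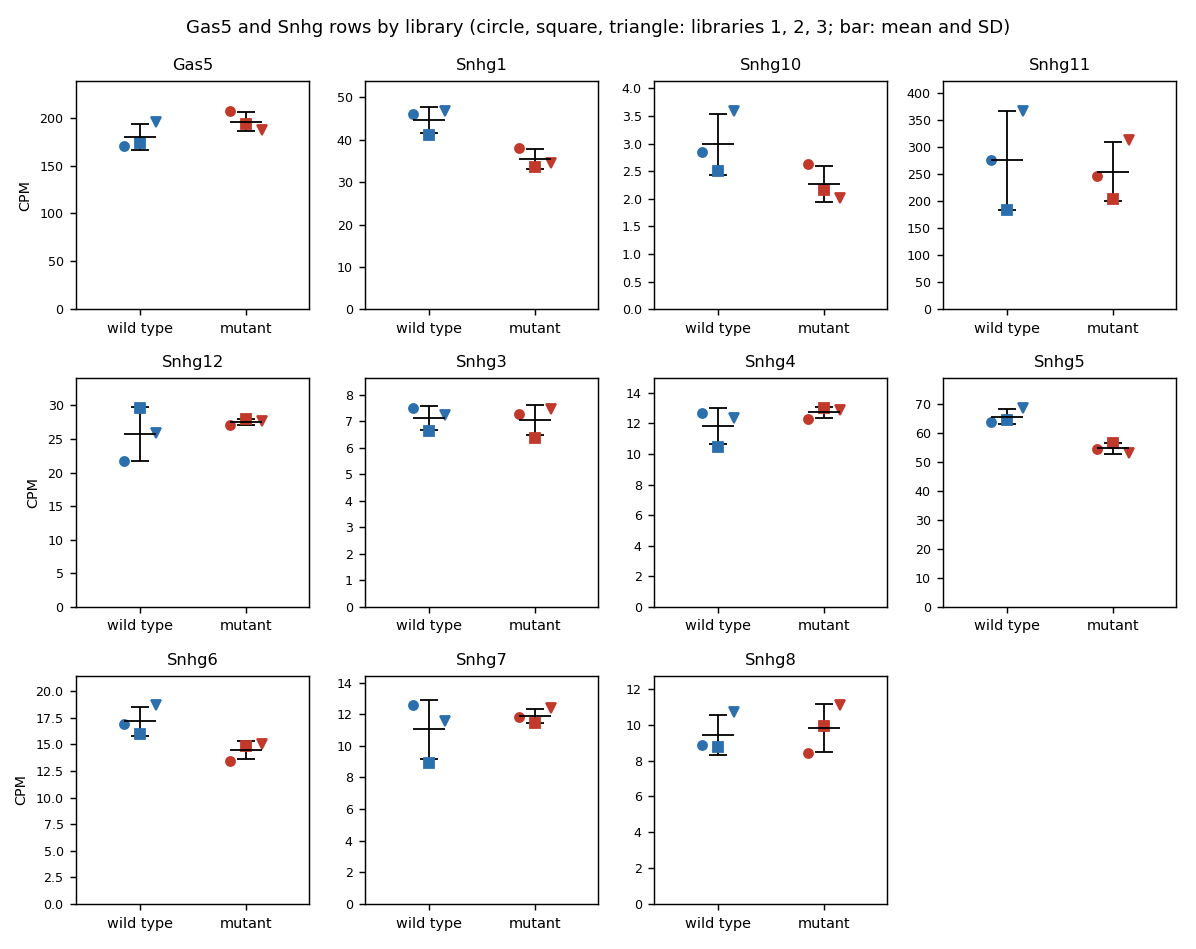
Each panel shows a tested host row in CPM, by genotype, with points for libraries (circle, square and triangle for libraries 1, 2 and 3) and bars for the mean and SD of 3. Snhg1, Snhg5 and Snhg6 have all mutant-labelled libraries below the wild type, and in Snhg11 the libraries keep the same order in both genotypes.

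Many Snhg genes are known for a start site with a terminal oligopyrimidine tract, as in genes of the translation machinery, so the annotated starts were read. RefSeq starts on GRCm38.p6 are shown as 60-base windows with 30 bases on each side. Capitals mark a tract, here a C followed by at least 4 bases that are each C or T, starting within 5 bases of the start on the transcribed strand. The windows of the hosts discussed above are those of Gas5 at chr1:161035136-161035195 (plus strand, the second of its 2 annotated starts), Snhg12 at chr4:132308648-132308707 (plus), Snhg7 at chr2:26640215-26640274 (minus), Snhg5 at chr9:88522868-88522927 (minus) and Snhg1 at chr19:8723457-8723516 (plus).
Gas5: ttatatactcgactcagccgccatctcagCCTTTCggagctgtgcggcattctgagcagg
Snhg12: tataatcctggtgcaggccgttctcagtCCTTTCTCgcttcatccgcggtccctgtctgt
Snhg7: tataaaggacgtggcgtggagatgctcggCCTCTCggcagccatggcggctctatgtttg
Snhg5: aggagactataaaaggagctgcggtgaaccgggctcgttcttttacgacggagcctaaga
Snhg1: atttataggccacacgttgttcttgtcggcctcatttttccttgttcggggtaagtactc

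A tract was found in 7 of the 10 host rows with a promoter sequence (70%), and in 21.2% of 27025 genes of the same table. A gene was counted if any of its annotated starts held a tract. Counted by start, 7 of 11 host starts (63.6%) and 18.3% of all 32851 starts held one. Gas5, Snhg12, Snhg7, Snhg3, Snhg8, Snhg9 and Snhg10 held it, while Snhg1, Snhg5 and Snhg11 had no match in this window. For Gas5 only the second of the 2 annotated starts held it, and the first had no match. In Snhg9 and Snhg10 the 5 bases of the tract lay wholly before the annotated start. In Snhg3 the tract began 2 bases after the start. A match describes the letters at the annotated start and was not tested against the fold changes.

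Each snoRNA was then set against its own host within the same library, as snoRNA reads per 1000 host reads. This ratio needs no scaling for depth. Pairs were used where both rows averaged at least 20 reads, giving 26 pairs with 20 hosts. The host was the gene on the same strand whose span holds the snoRNA. The log2 ratio (0.5 added to both counts) was higher in the mutant-labelled group in 19 pairs, with a median difference of 0.22. It was separated between genotypes with the mutant-labelled libraries higher in 5 pairs and lower in 0. For levels of single genes the shares separated were 7.42% higher and 6.09% lower, and no such share was computed for ratios. Pairs with the same host share its reads. No host in these pairs was called without pairing, and 2 were with pairing, Snhg1 and 2410002F23Rik.

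Snord47 gave 13.0, 14.0 and 17.5 reads per 1000 Gas5 reads in the mutant-labelled libraries and 6.97, 9.72 and 8.65 in the wild type, a 1.74-fold difference without overlap. Snora61 gave 95.7, 82.0 and 100 per 1000 Snhg12 reads against 50.3, 60.4 and 44.1, a 1.78-fold difference. In both pairs the snoRNA levels were separated between genotypes and the host levels overlapped. Snord47, Snora61, Snora16a, Snora44, Snord99, Snord22 and Snord52 each lie over an exon of some annotated transcript of their host. How reads there were assigned is not known, so these ratios may not compare separate RNAs. Snora43 gave 151, 135 and 130 reads per 1000 Snhg7 reads against 67.9, 108 and 103, or 1.5-fold. Whether Snora43 lies over an exon of Snhg7 was not determined, so its ratio is open to the same doubt. The other 3 snoRNAs of Snhg12 had overlapping ratios: log2 differences were 0.71 for Snora16a, 0.72 for Snora44 and 0.42 for Snord99. Snord22 gave 116, 99.3 and 133 reads per 1000 Snhg1 reads against 105, 71.8 and 120, a log2 difference of 0.25 with overlap.

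The remaining separated pairs had hosts without an Snhg symbol in the count table and are named because of their values. Snord52, in the long non-coding gene 1110038B12Rik, was at 1.93, 1.75 and 1.66 CPM against 0.948, 0.580 and 1.14 (log2 1.00, SE 0.28, edgeR adjusted p = 0.454, and 0.0532 with pairing). It gave 45.6, 40.7 and 39.9 reads per 1000 host reads against 24.3, 12.7 and 29.8. Snord37, in the elongation factor gene Eef2, was at 1.65, 1.71 and 1.26 CPM against 0.616, 1.16 and 0.925, and gave 0.631, 0.677 and 0.490 reads per 1000 Eef2 reads against 0.219, 0.445 and 0.369. Neither snoRNA row passed the test.

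**Figure D4:**
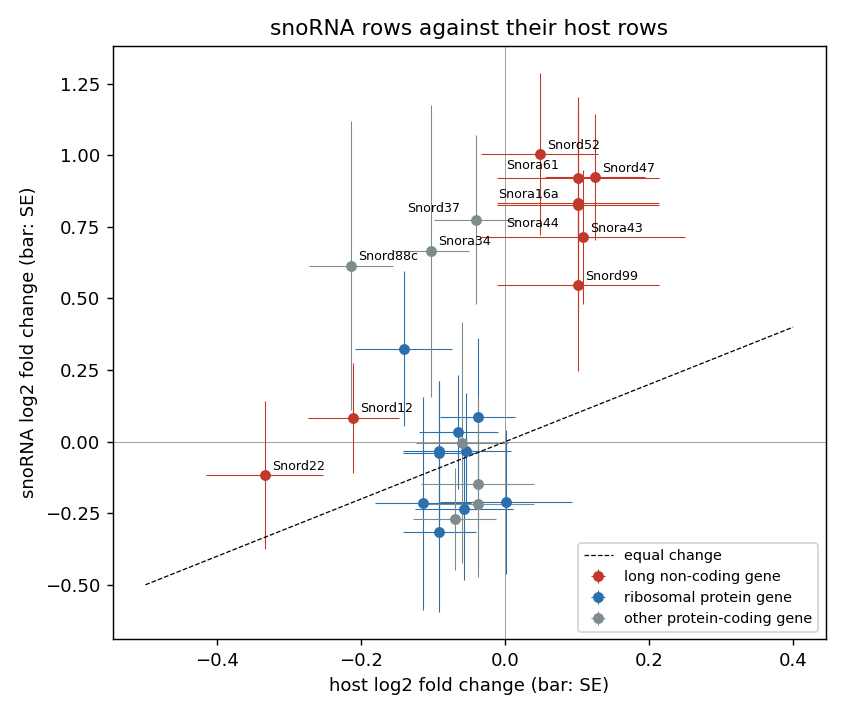
Each point is 1 of 26 snoRNA and host pairs, with the host's log2 fold change on the x axis and the snoRNA's on the y axis, mutant-labelled over wild type, from edgeR without pairing. Bars are SE and the dashed line marks equal change in both. The 9 pairs in long non-coding genes (red) come from 6 hosts and all lie above the line. Hosts span only −0.33 to 0.12 on the x axis.

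Rows were also grouped by the kind of host, a split chosen after the values were seen. Of 13 tested rows in long non-coding genes, 10 had a log2 difference above 0 and 3 below, with a median of 0.82, and 6 were separated with the mutant-labelled libraries higher and 0 with them lower, beside 7.42% and 6.09% of all tested genes. The 3 below 0 were Snord87 of Snhg6, Snord49a of 2410006H16Rik and Snord22 of Snhg1. Snhg12, Snhg7 and 2410006H16Rik each hold several of the 13 rows, and all rows share the same libraries. The rows are therefore not separate observations of the genotype. Of 17 tested rows in ribosomal protein genes, 6 were above 0 and 11 below, with a median of −0.04 and none separated. Of 12 in other protein-coding genes, 5 were above 0 and 7 below, with a median of −0.08 and 2 separated in each direction. Over all rows with at least 1 read, those in long non-coding genes (20 rows) were separated in 7 higher and 0 lower, those in ribosomal protein genes (32 rows) in 0 and 1, and those in other protein-coding genes (41 rows) in 3 and 7. Snora74a, counted among the 3, was assigned to Gm28285. It also lies within the RefSeq span of the non-coding host Snhg4, whose strand was not available, so its class is uncertain. The 1 tested row for which no host was found in the annotation used was Snord104. It was at 1.51, 2.21 and 2.22 CPM against 1.28, 1.06 and 1.47 (log2 0.64, SE 0.25).

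Levels were also summed over all rows of a kind, untested rows included. Rows in long non-coding genes (27 rows) summed to 24.4, 22.9 and 26.5 CPM in the mutant-labelled libraries and 18.4, 16.1 and 21.1 CPM in the wild type, so the groups did not overlap. Their means were 24.6 ± 1.79 and 18.5 ± 2.50 CPM (SD, n = 3). Rows in ribosomal protein genes (32 rows) summed to 24.2 ± 0.733 against 24.1 ± 2.3 CPM, and those in other protein-coding genes (55 rows) to 16.9 ± 2.33 against 16.0 ± 1.59 CPM, both overlapping. Summed over all 119 rows, the level was 66.4, 68.1 and 68.7 CPM against 59.0, 56.1 and 64.6, a difference of 7.82 CPM without overlap. By class the H/ACA rows summed to 28.4 ± 0.888 against 24.0 ± 1.47 CPM and the C/D rows to 38.9 ± 1.21 against 35.5 ± 3.28 CPM. Sums weight the abundant rows most and carry no test here.

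**Figure D5:**
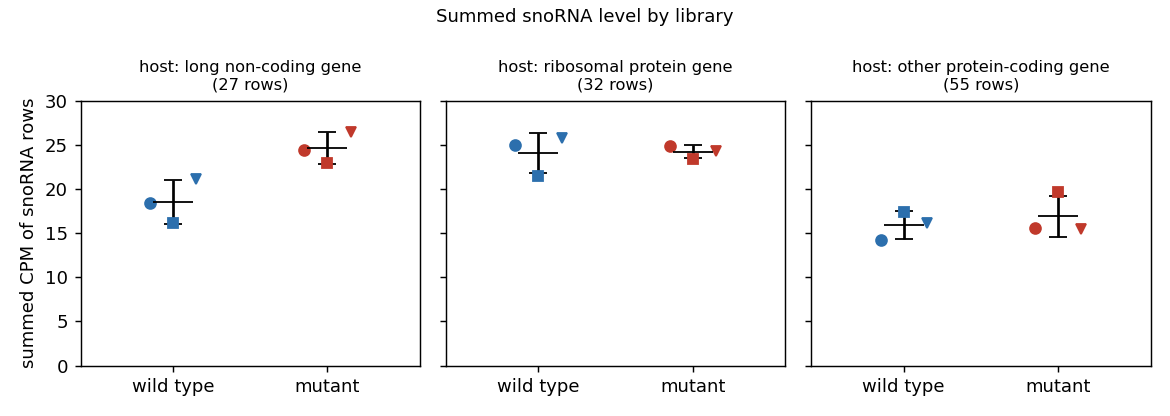
Summed CPM of snoRNA rows by library, in panels for rows in long non-coding, ribosomal protein and other protein-coding genes. Points are libraries (circle, square and triangle for libraries 1, 2 and 3), and bars are the mean and SD of 3. The mutant-labelled libraries lie at 22.9 to 26.5 CPM in the first panel, above the wild type at 16.1 to 21.1 CPM, and overlap the wild type in the other panels.

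The rows with the highest mean level included guides in ribosomal protein genes. Snora65, of Rpl12, was at 3.44, 3.38 and 3.78 CPM in the mutant-labelled libraries and 3.89, 2.75 and 4.19 CPM in the wild type (log2 −0.03, SE 0.20). Snora70, of Rpl10, was at 2.83, 2.0 and 2.42 CPM against 2.37, 2.42 and 2.29 (log2 0.03, SE 0.20). In both, the groups overlapped.

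Snord100, of Rps12, was at 1.56, 1.79 and 1.61 CPM against 2.23, 1.40 and 2.23 (log2 −0.24, SE 0.25). Snord12, of the non-coding gene Zfas1 (listed as 1500012F01Rik), was at 2.26, 2.54 and 2.62 CPM against 1.99, 2.46 and 2.56 (log2 0.08, SE 0.19). Snord96a, of Rack1 (listed as Gnb2l1), was at 1.98, 2.04 and 2.02 CPM against 2.28, 2.56 and 2.45 (log2 −0.27, SE 0.18). Only Snord96a of these 3 had separated groups, and none passed either fit.

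Rows of the same host did not always have the same sign or size, in examples chosen after their values were seen. In Gnl3, a nucleolar protein gene, Snord69 was at 0.613, 0.751 and 0.504 CPM against 1.19, 0.918 and 1.69 (log2 −0.998, SE 0.32, edgeR adjusted p = 0.515, and 0.126 with pairing). Its neighbour Snord19 had a log2 difference of 0.12 with an SE of 0.50. In Rps12, Snora33 was at 1.18, 1.54 and 0.705 CPM against 0.332, 0.676 and 0.871 (log2 0.89, SE 0.43), beside the value of −0.24 for Snord100. In 2410006H16Rik, Snord65 was at 0.990, 0.792 and 1.01 CPM against 0.427, 0.531 and 0.435 (log2 0.99, SE 0.29), while Snord49a had −0.29 (SE 0.39). The differences between rows of a host were not tested.

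A single wild-type library set the spread of other rows. Snora34, of Kansl2, was at 0.711, 2.08 and 0.435 CPM in wild-type libraries 1, 2 and 3, and Snord88c, of 2410002F23Rik, at 0.569, 2.27 and 0.708 CPM. In the mutant-labelled libraries they were at 2.03, 1.58 and 1.56 CPM and at 1.41, 2.08 and 1.96 CPM. The second wild-type library was thus as high as the mutant-labelled ones in both rows, and Rmrp and Rpph1 were also highest there, at 0.918 CPM each. With that library left out, edgeR without pairing called 35 genes and 0 members.

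The proteins that build and guide these particles showed no call in either fit for the core sets. None of 13 tested genes of the C/D particle and its assembly passed, including Fbl, the methyltransferase (103.6 ± 0.239 against 103.8 ± 2.85 CPM), Nop56 (log2 0.04, SE 0.06), Nop58 (log2 0.09, SE 0.07) and Nhp2l1 (log2 0.00, SE 0.06). None of 7 genes of the H/ACA particle passed, including Dkc1, the pseudouridine synthase (36.0 ± 1.49 against 36.7 ± 2.62 CPM), Nhp2 (log2 0.02, SE 0.08), Nop10 (log2 −0.01, SE 0.07) and Gar1 (log2 0.18, SE 0.07). Their median log2 differences were 0.03 and −0.01.

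Among 7 tested Cajal body genes, Gemin4, a subunit of the SMN complex, rose with pairing, at 14.8, 16.5 and 17.1 CPM against 11.2, 13.5 and 13.1 (log2 0.36, edgeR adjusted p = 0.0495, and 0.489 without pairing). Of 14 nonsense-mediated decay factors, Upf1, the helicase of that pathway, rose with pairing, at 96.8, 92.4 and 99.7 CPM against 76.8, 88.3 and 82.7 (log2 0.22, edgeR adjusted p = 0.0382, and 0.483 without pairing). The groups did not overlap for either gene. These are single calls in lists of 7 and 14 genes, beside 1.97% of all tested genes called higher and 3.46% called in either direction by that fit. None of 14 genes of debranching and exosome trimming and none of 13 of ribosome biogenesis and RNA polymerase I passed either fit. The precursor ribosomal RNA row Rn45s, the only tested one of 9 other short or ribosomal RNA rows, had a log2 difference of 0.11. Of 6 tested host rows of other small RNA clusters, Mir17hg rose and Ipw fell with pairing (edgeR adjusted p = 0.000651 and 1.7e-05).

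The rows with microRNA symbols showed the opposite order of sums. The counts do not say whether their reads come from mature microRNAs or from longer transcripts that hold them. The 660 microRNA rows, 482 of them without a read, summed to 33.4 to 36.3 CPM in the mutant-labelled and 38.2 to 40.1 CPM in the wild-type libraries. Of 19 tested, 1 was called higher and 2 lower with pairing. The part of this difference in the snoRNA values was not tested. The summed snoRNA level was thus higher where the summed level of the microRNA rows was lower. The sources used here do not give the fragment sizes of each library.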

How the data were processed

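RNA sequencing counts from 6 neocortex libraries, 3 per genotype, were used. The deposited table holds raw read counts per gene symbol, made by the authors. Tools and build per the submitters' processing notes were TopHat2 2.0.9 and Bowtie2 2.1.0, HTSeq 0.5.3p9, CASAVA 1.8.2 and mm10. The kit was stranded, per the labels' protocols. Settings, annotation and strand mode are not given in the sources used, so overlapping, antisense and near-identical genes are uncertain.

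Columns were matched to samples by title, and 0 columns were left unused. Members and lists were chosen with earlier results of these data known. The test was that of edgeR 4.0.16 under R 4.3.3 (robust quasi-likelihood, TMM, default filter, two-sided, Benjamini-Hochberg over 14618 genes at 0.05). DESeq2 1.42.0, other scalings, no filter and leaving out each library were alternatives. The code was tested on simulated data. Each SE was computed back from edgeR's F value. Replicates differed beyond sampling noise (chi-square per degree of freedom 7.13 to 23.1), and p-values measure the spread between pools.

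Pairing was checked by correlating deviations from group means. Same-numbered libraries gave r = 0.614, 0.514 and 0.467 and the others −0.483 to −0.0684. Deviations from a group mean cancel within the group, so the negative values follow largely from the positive ones and are not separate evidence. On the same-numbered values, the numbers were taken as pairs. This rests on the data, since the labels do not say what a number marks.

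Values in every library are given for called members, tested hosts, the 8 snoRNA rows with the highest mean CPM and snoRNAs paired with a Gas5 or Snhg host. Other rows are named for their values. Positions came from GENCODE M21 (128 rows by symbol) or RefSeq (2), and 1 row had none. Promoters came from RefSeq.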

Additional observations from a re-analysis of the deposited data

How the results depend on the processing

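The pairing (replicate block) decided most calls. All genes called numbered 11 without it and 506 with it, snoRNA rows 0 and 2, and hosts 0 and 2. With the block and 1 pair left out, the counts ran from 62 to 1874 for all genes (295 without the libraries numbered 1), 0 to 6 for snoRNA rows and 0 to 4 for hosts, highest without the libraries numbered 2. Without the block, upper-quartile scaling gave 17 genes, no filter 20, DESeq2 102 and leaving out a library 3 to 35, the most without wild-type library 2, and all these called 0 members. The cause was not tested.

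Over 23 members with values in every library, 291 of 322 alternative log2 differences kept direction and side of the threshold, 12 passed it newly and 19 changed sign, all in members called by neither fit. Leaving out a library moved Snhg11 from −0.34 to 0.15 (0.02 without mutant-labelled library 2), Snhg12 from −0.012 to 0.22, Snhg3 from −0.068 to 0.048 (0.02 without wild-type library 1), Snhg7 from −0.023 to 0.21 and Snhg8 from −0.034 to 0.15. It moved Snord22 from −0.34 to 0.077 (0.02 without mutant-labelled library 2), Snora65 from −0.19 to 0.087 (0.000924 and 0.03 without mutant-labelled library 2 and wild-type library 1), Snord12 from −0.022 to 0.15 and Snora70 from −0.10 to 0.15. With the block and 1 pair left out, the changed signs were Snhg8 at −0.0097, Snord22 at 0.015, Snora65 at 0.065 and 0.052, and Snora70 at −0.0997.

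Snord47 stayed at 0.77 to 1.01 and Snora61 at 0.79 to 1.19 without any 1 library, and the summed snoRNA difference at 5.91 to 10.2 CPM. The sum for rows in long non-coding genes, an alternative chosen after seeing the data, stayed at 4.86 to 7.36 CPM, while that in ribosomal protein genes ran from −1.18 to 0.969 CPM. Counts of 21 to 65 reads per library limit the precision for Snord47 and Snora61.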
